A study of Mus musculus with 9 samples.

Results

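The baseline of the atherosclerotic aorta was described from the 3 arrays of saline-injected mice, chosen by the treatment that their labels name, out of 9 arrays in the series. The other 6 arrays belong to mice given an adenoviral vector and were not compared here. Every mouse was a female APOE-/- animal, lacking apolipoprotein E, on a C57BL/6 background, bought at 8 weeks of age. All had eaten a diet with 0.2% cholesterol and 10% coconut oil for 30 weeks to bring on lesions. The saline group, labelled PBS for phosphate-buffered saline, received it by tail vein and was killed 10 days later. Each array measured RNA pooled from 3 aortas, taken from sinus to arch, so the 3 PBS arrays (replicates 1, 3 and 4) stand for 9 aortas. Pooling hides the variation between single mice, and with no chow-fed or Apoe-sufficient aorta among these arrays no level can be called a result of disease.

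An atherosclerotic artery wall holds contractile smooth muscle in the media, an endothelial lining and an adventitia of fibroblasts with small vessels, nerves and fat around it. In the intima, macrophages take up modified lipoproteins and become lipid-laden foam cells, while smooth muscle cells can lose contractile genes and make matrix. The aortic sinus lies at the base of the heart, and the arch lies beside thymus, brown fat and airway, so a dissection from sinus to arch can carry pieces of each.

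Expression was given as log2 signal, and each gene was represented by its brightest probe set annotated to 1 gene, which left 18193 genes. A gene was called bright if it lay in the top 10% (a mean log2 signal above 11.76). It was called near the floor if it lay at or below 4.91, the level under which 95% of 76 smell and taste receptor genes fell, genes that serve sensory cells. All others were called middling. Of all genes, 1820 (10.0%) were bright, 12526 (68.9%) middling and 3847 (21.1%) near the floor, and these shares are the background for every count of list members below. Just inside and just outside the bright limit were Gatad1 at 11.76 and Fgfr1op2 at 11.76, and at the floor limit Gm11346 at 4.91 and Lman1l at 4.91, so the limits cut a continuous range.

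**Figure D1:**
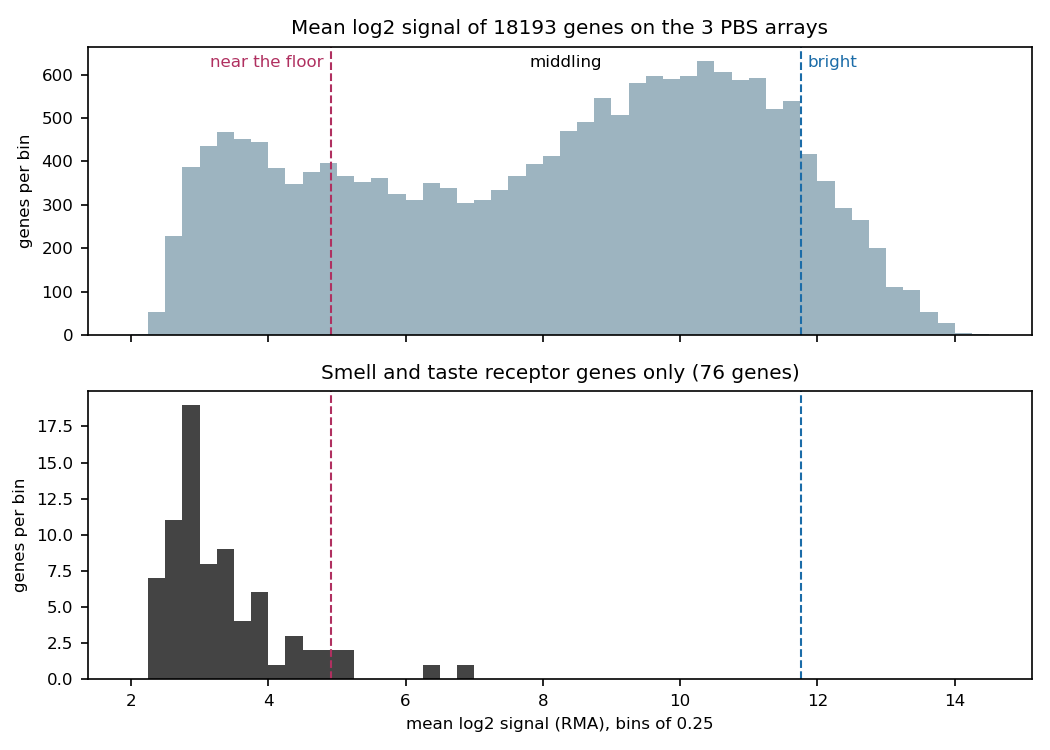
Number of genes per bin of 0.25 in mean log2 signal over the 3 PBS arrays, for all 18193 genes (top) and for the 76 smell and taste receptor genes (bottom). Dashed lines mark the floor limit at 4.91 and the bright limit at 11.76; the receptor genes pile up at the left, from 2.27 to 6.94.

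A rank here compares the signals of probe sets, which bind their targets with unequal strength, and not transcript numbers, so no fold is given between genes. The floor is not sharp. All 27 bacterial control probe sets read between 2.51 and 4.81, at or below it. Sry, the male-determining gene of the Y chromosome, which female mice lack, nevertheless read 7.30 on its brightest probe set and 3.46 on its other one, and 3217 genes (17.7%) lay between the floor and Sry. The other 5 of 6 Y-linked genes measured were near the floor, and so were 14 of 18 genes of sense organs and germ cells, while Prm1, a sperm protamine, read 8.39. The higher value of Sry and that of Prm1 came from probe sets marked as open to cross-matching, and the other probe sets of Prm1 read 3.44 and 2.72. A middling value under the level of Sry is therefore not taken below as evidence that a gene was expressed. That holds also where a value under 7.30 is given without a remark. As Prm1 read above Sry, a value just above Sry is no proof of expression either. In whole-tissue RNA, fewer cells of a type and less RNA per cell cannot be told apart.

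The 3 arrays resembled each other closely, with correlations across probe sets from 0.9969 to 0.9977, and a gene's median standard deviation (SD) between pools was 0.0805 on the log2 scale. It was 0.0379 for bright, 0.0788 for middling and 0.128 for dim genes. The 3′ minus 5′ log2 difference of control probe sets was 0.879 ± 0.0976 for beta-actin and 0.852 ± 0.0445 for Gapdh (SD, n = 3), and 4.32 ± 0.302 and 4.89 ± 0.234 for transferrin receptor and pyruvate carboxylase. Transferrin receptor and pyruvate carboxylase averaged 8.85 and 10.37 on the 3′ sets but 4.53 and 5.48 on the 5′ sets. The signal of a transcript can thus depend on where its probe set lies, and the positions of other probe sets were not examined. Replicate 4 stood apart from the other 2 pools in several tissue lists, as described near the end.

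The brightest gene of the aorta was Lgals1, encoding the secreted lectin galectin-1, at 14.21, 14.34 and 14.34 on replicates 1, 3 and 4. It was followed by Nupr1, a stress-induced chromatin protein, and then by the ribosomal proteins Rpl41 and Rpl35. Mgp, matrix Gla protein, an inhibitor of vascular calcification, stood at rank 5 with 14.08, 14.18 and 14.13. Of the 30 brightest genes, 11 encoded ribosomal proteins. Others were the smooth muscle genes Tagln, Acta2 and Tpm2, the macrophage enzymes Lyz2 (lysozyme), Ctss and Ctsb (cathepsins S and B), and the lipid-binding genes Fabp4 (a fatty acid carrier) and Clu (clusterin, a chaperone). The remainder, such as Vim (vimentin), Tmsb4x (an actin-binding peptide) and Eef1a1 (an elongation factor), are made by many cell types. All 30 lay between 13.78 and 14.29, and their SD ran from 0.0116 to 0.127. Lyz1 stood beside Lyz2 at 13.83, but on a probe set marked as open to cross-matching; its own unmarked probe set read 5.34.

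The contractile programme of smooth muscle was among the brightest of the wall. Of 21 measured genes, 17 were bright and 4 middling, and the median gene was brighter than 96.5% of all genes. Tagln (transgelin, an actin-binding protein) read 13.96, 14.00 and 14.00 and Acta2 (smooth muscle actin) read 13.88, 13.93 and 13.95. The myosin heavy chain Myh11, the marker most limited to this lineage, read 13.45, 13.42 and 13.51, and calponin, Cnn1, read 11.91, 11.87 and 12.01. The 3 pools were close to one another for each of the 4 defining markers, and all 4 were bright in each pool. Tpm2, Myl9 and Tpm1, a tropomyosin, the regulatory light chain and a second tropomyosin, had means of 13.79, 13.76 and 13.65. The dimmest members were the receptor part Ramp1 at 9.97, the potassium channel subunit Kcnmb1 at 9.57 and the integrin Itga7 at 8.57, all still above the level of Sry. For Acta2 the level depended on the probe set, since its other 2 probe sets read 10.65 and 7.97.

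Myl9 was the only gene of 16 in that list with a promoter sequence whose window held a CArG box, the DNA element bound by serum response factor. The window runs from 250 bases before to 50 after the gene's start, in RefSeq's GRCm38.p6, and 1.58% of 14452 gene windows held the box. Its last 200 bases before the start, at chr2:156775264-156775463 on the plus strand, are shown with the box in capitals because it is the one match among these bright genes.
Myl9: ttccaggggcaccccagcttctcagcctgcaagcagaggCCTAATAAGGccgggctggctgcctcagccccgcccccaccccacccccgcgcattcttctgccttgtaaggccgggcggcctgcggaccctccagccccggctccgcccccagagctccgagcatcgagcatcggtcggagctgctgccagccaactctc
The box lies 161 to 152 bases before the start. Acta2, Cnn1 and the other 13 windows held none, which says only that these letters are not in this window.

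Genes that smooth muscle cells gain when they leave the contractile state were bright as well. Of 12 measured, 7 were bright and none near the floor, with a median at 96.7% of genes dimmer. Besides Mgp, the leading members were Dcn (decorin) at 13.64, 13.64 and 13.64, Fn1 (fibronectin) at 13.48, 13.50 and 13.49, Timp1 (a metalloprotease inhibitor) at 13.21, 13.17 and 13.11 and Vcam1 (a leukocyte adhesion molecule) at 12.99, 13.02 and 13.04. Fibroblasts and endothelium also make several of these, so the list does not single out smooth muscle. Its 3 dimmest members were the tenascin Tnc at 11.41, the RANK ligand decoy Tnfrsf11b at 10.97 and the transcription factor Tcf21 at 9.27.

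Adventitial fibroblast genes formed a uniformly bright list, with 14 of 15 bright. Dcn and Pdgfra were its defining markers, and Pdgfra, a growth factor receptor of fibroblasts, read 12.10, 12.05 and 12.03. Dcn varied least, with an SD of 0.0027. The collagens Col3a1 and Col1a1 read 13.57 and 13.49, gelsolin (Gsn) 13.25 and lumican (Lum), a collagen-binding proteoglycan, 12.98. Clec3b, encoding tetranectin, was the only middling member, at 9.96, 9.94 and 9.72.

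Endothelial genes sat a band lower. Of 24 measured, 1 was bright and 23 middling, with a median at 64.8% of genes dimmer. The bright one was Vwf, von Willebrand factor, at 12.16, 12.23 and 12.19. The adhesion molecule Pecam1 read 10.45, 10.58 and 10.43 and vascular cadherin, Cdh5, read 8.84, 8.79 and 8.74. All 3 defining markers thus lay above the level of Sry in each pool. Ptprb (a phosphatase), Tek (the angiopoietin receptor), Mmrn2 and Plvap followed Vwf, with means of 11.73, 11.61, 11.57 and 11.12. The connexin Gja5 was the dimmest at 5.23, 5.33 and 5.22, below Sry. Of 6 lymphatic genes only Pdpn (podoplanin, also made by fibroblasts and macrophages) was bright, at 12.70, and Lyve1, the hyaluronan receptor, read 10.39. Pericyte genes had a median at 85.5% of genes dimmer, led by the G-protein regulator Rgs5 at 12.73. Higd1b, the dimmest of its 10 members, read 6.80.

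The matrix was bright from several families at once. Of 15 fibrillar and associated collagens 7 were bright, and type III (Col3a1), both chains of type I (Col1a2 at 13.53 and Col1a1) and type V (Col5a2 at 13.19) led the list. The alpha chain Col6a1 followed at 12.79. At the low end stood Col9a1, a cartilage collagen, at 7.80, 7.59 and 8.34, Col5a3 at 7.86 and Col11a1 at 6.25, 6.12 and 6.76. Replicate 4 was the highest pool for each of these 3 and for 13 of the 15 collagens, against 36.4% of all genes.

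Among 19 basement membrane genes 6 were bright. Sparc, a collagen-binding matricellular protein, read 13.57, 13.63 and 13.65, and the network-forming collagens Col4a2 and Col4a1 read 12.88 and 12.81. Col18a1, the source of endostatin, read 12.50, and the laminin chain Lamb2 12.12. The dimmest were Col4a4, Nid2 and Col4a3 (means of 9.05, 8.27 and 8.14), so within type IV collagen the chains Col4a1 and Col4a2 gave bright signals and the chains Col4a3 and Col4a4 middling ones.

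Elastic fibre genes had 10 of 16 members bright. Elastin itself, Eln, read 12.86, 12.92 and 12.95, and Fbln5, a fibulin needed to assemble elastin, read 13.03, 13.04 and 13.10. Latent TGF-beta binding proteins came next, Ltbp3 at 12.99 and Ltbp1 at 12.87, and then the microfibril protein Mfap5 at 12.55. The defining marker Fbn1 had no usable probe set and was not analysed here, whereas Fbn2, the fetal fibrillin, was the dimmest at 5.85, 5.43 and 5.43.

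Proteoglycans and hyaluronan genes split by role. Most core proteins were bright, with aggrecan (Acan) middling at 11.21, and the synthases that make hyaluronan were lower. Bgn (biglycan) read 13.62, 13.65 and 13.68, Fmod (fibromodulin) 13.35, 13.43 and 13.63, the syndecan Sdc4 13.05 and osteoglycin (Ogn) 13.01. The hyaluronan synthases Has2 and Has1 read 7.49 and 7.45, close to Sry, and Has3 at 4.72 was near the floor. Of 13 adhesive glycoproteins 6 were bright. They included Ccn2, a connective tissue growth factor, at 13.38, 13.42 and 13.49, periostin (Postn) at 12.91, 12.87 and 12.90 and Ccn1 at 12.23, 12.27 and 12.47, whereas Vtn (vitronectin), mainly a liver product, read 7.07.

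**Figure D2:**
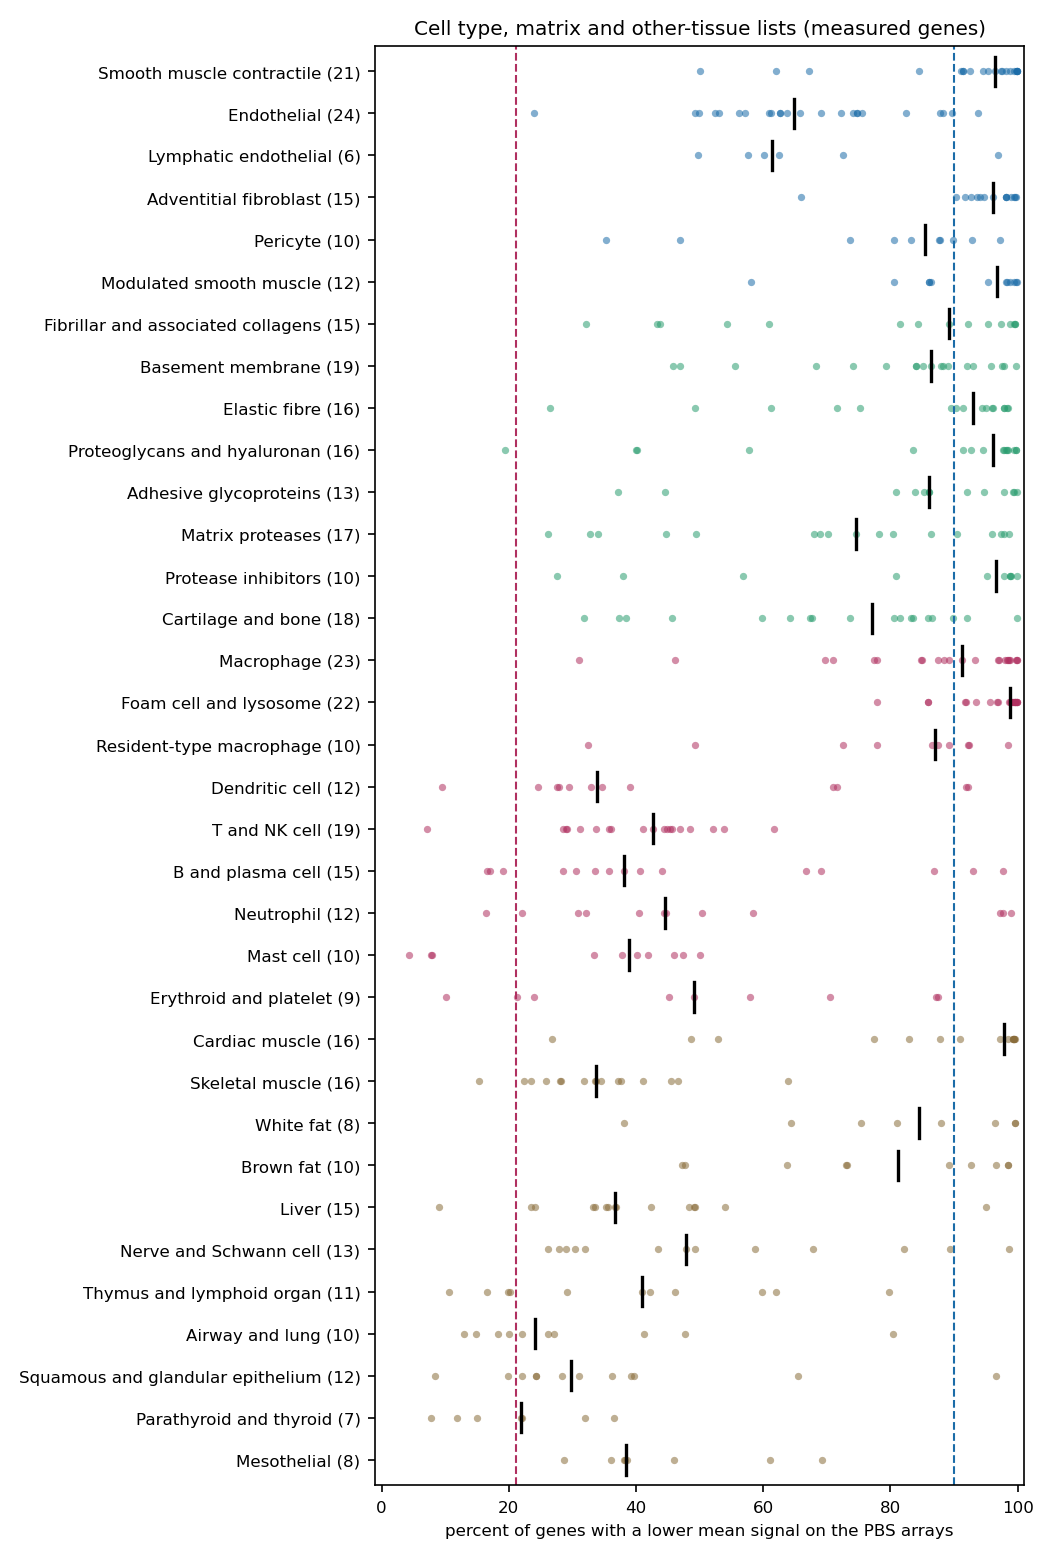
Position of each measured gene (points) and the median (black bar) of each cell type, matrix and other-tissue list, as the percent of all genes with a lower mean signal on the 3 PBS arrays; the number of measured genes is in brackets. Dashed lines mark the floor limit (left) and the bright limit (right). Smooth muscle, fibroblast, foam cell and cardiac lists crowd to the right, and T cell, mast cell, airway and parathyroid lists to the left.

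Matrix-degrading enzymes ranged widely. Of 17, 5 were bright and 12 middling. The macrophage elastase Mmp12 read 13.11, 13.13 and 13.11, with the 3 pools within 0.0115 (SD) of each other, and stromelysin, Mmp3, read 12.85, 12.81 and 12.69. Mmp23 and the gelatinase Mmp2 read 12.87 and 12.52, and Mmp19 read 11.81. At the low end were Adamts7 at 6.60, the stromelysin Mmp10 at 6.46 and urokinase, Plau, at 5.54, all below Sry. The inhibitors of such enzymes were bright in 6 of 10 cases. Cystatin C (Cst3), which inhibits cathepsins, read 13.88, 13.96 and 13.90, and Timp2 read 13.25, 13.26 and 13.24. Serping1 read 13.17, and Timp3, bound to matrix, read 12.89. A2m, a general protease trap, was the dimmest at 5.56, 5.41 and 6.20.

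The letters TATAAA occurred in the promoter window of 6 of 9 protease genes with one (66.7%), against 11.5% of all genes. These genes were Adamts1, Mmp3, Mmp8, Mmp10, Mmp12 and Mmp13. All but Adamts1 belong to the Mmp gene family, so they are not independent examples. Both strands were searched, and overlaps between motifs were not looked at. The last 80 bases before the start of Mmp3 (chr9:7445742-7445821, plus strand) and of Mmp13 (chr9:7272434-7272513, plus strand) are shown, with TATAAA in capitals, as a bright and a middling member of that family lying near each other on chromosome 9.
Mmp3: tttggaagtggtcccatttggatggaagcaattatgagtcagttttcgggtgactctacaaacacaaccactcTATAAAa
Mmp13: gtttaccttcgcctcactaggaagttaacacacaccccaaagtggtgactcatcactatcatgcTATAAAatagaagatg
Mmp3 stood at 12.79 and Mmp13, a collagenase, at 10.12. The same letters were found in 10 of 18 windows of cytokine genes and in 5 of 7 of adhesive glycoprotein genes (71.4%). Both bright genes such as Postn and genes near the floor such as Ifng held them.

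Cartilage and bone genes, which rise in calcifying lesions and mark cartilage itself, had 2 of 18 members bright. These were Mgp and Comp, a cartilage matrix protein, at 11.86, 11.91 and 12.16. Ank (a pyrophosphate transporter), the acid phosphatase Acp5 and the collagen-cleaving cathepsin Ctsk had means of 11.74, 11.46 and 11.40. The bone transcription factor Sp7 was dimmest at 6.33, below Sry, together with Col10a1 at 7.11 and Tnfsf11, the RANK ligand, at 7.25. Cnmd, a cartilage-specific protein, read 7.56, 7.68 and 9.14, highest in replicate 4, and Panx3, a channel of cartilage and bone cells, read 7.20, 7.42 and 9.19.

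Macrophage genes were bright in 12 of 23 cases, with none near the floor. Lyz2 read 13.82, 13.84 and 13.83, C1qb (a complement C1q chain made by macrophages) 13.72, 13.72 and 13.75, and Csf1r, the receptor for macrophage colony-stimulating factor, 13.08, 13.14 and 13.27. Mpeg1, a pore-forming protein, had a mean of 13.10. The monocyte receptors Ccr2 and Cx3cr1 were lower, at 10.26, 10.12 and 10.13 and 8.12, 8.32 and 8.09, and the integrin Itgam was the dimmest at 6.18, 6.15 and 6.35.

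Foam cell and lysosomal genes were the brightest immune list, with 19 of 22 bright and a median at 98.9% of genes dimmer. Cathepsins led it: Ctss read 13.81, 13.88 and 13.94, Ctsb 13.81, 13.88 and 13.89, Ctsl 13.70 and Ctsd 13.57. Fabp4 read 13.79, 13.86 and 13.68; adipocytes also make it, and the fat markers Ucp1 and Adipoq, given further on, were bright in the same pools; their part in its level was not tested. The dimmest members were the middling genes Ctsk, Trem2 (a lipid-sensing receptor) at 11.49, 11.41 and 11.30 and the cholesterol exporter of lysosomes, Npc1, at 10.77, 10.79 and 10.76. Lysosomal genes are expressed in most cells and alone do not mark foam cells. Genes of resident-type macrophages had 3 of 10 bright. Gas6, the ligand of Mertk, read 13.04, Cbr2 12.01 and F13a1, a clotting transglutaminase, 11.99. The mannose receptor Mrc1 and the platelet factor Pf4 read 11.70 and 11.53, whereas Timd4, a receptor for dying cells, read 6.17, 6.61 and 6.48, below Sry.

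The list of T and NK cell genes was far dimmer. No T or NK cell gene of 19 was bright, and the median stood at 42.7% of genes dimmer. The T cell receptor part Cd3e was highest at 9.66, 9.61 and 9.40, followed by Cd8a at 9.07, 9.23 and 8.38, the pore protein perforin (Prf1) at 8.76 and Cd3d at 8.43. Foxp3, the regulatory T cell factor, read 5.86, and Ncr1, an NK cell receptor, was near the floor at 3.36. The thymocyte genes Rag1 and Dntt, given further on, lay above Sry on average, and the part of thymus in the T cell values was not tested.

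Dendritic cell genes had a median at 33.8% of genes dimmer. Fscn1 (fascin) and the integrin Itgax were bright at 12.00 and 11.97, but both are made by other cells of the lesion. Zbtb46 and Irf8, transcription factors of the lineage, read 10.30 and 10.26. Flt3 read 5.36, below Sry, and Xcr1, the receptor of cross-presenting cells, was near the floor at 3.57. Mast cell genes had no bright member among 10 and 3 near the floor. Their proteases Cma1 (chymase) and Cpa3 (carboxypeptidase) read 8.43, 8.76 and 8.53 and 7.96, 8.27 and 8.25, above Sry.

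B and plasma cell genes were uneven. Sdc1 was bright at 12.84, but epithelia and macrophages make it too. Ighm, the IgM heavy chain, read 11.74, 11.73 and 12.82, and the antibody joining chain, Jchain, read 9.82, 9.69 and 10.85. On these probe sets replicate 4 was about 1 log2 unit above the other 2 pools for both genes, and Ighm was bright there only. The 11 probe sets of Ighm disagreed, however, since 2 were highest in replicate 4 and 8 were lowest there, one of them at 10.10, 9.87 and 8.01. No direction between pools is therefore given for Ighm. The B cell factor Pax5 and the receptors Fcer2a and Cr2 were near the floor, at 4.68, 4.44 and 4.36.

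Of 12 neutrophil genes 3 were bright. S100a9 and S100a8, the calprotectin subunits, read 13.35, 13.30 and 13.14 and 12.81, 12.78 and 12.66, and lipocalin, Lcn2, read 12.89, 12.88 and 12.75. All 3 can be made by macrophages or other cells. Granule genes made in precursors were lower and uneven. Ngp and Ltf (lactoferrin) read 9.30 and 8.60, above Sry, whereas Mpo read 5.02 and Elane, at 4.36, was near the floor. The letters GAGGAAGT, a site of the PU.1 type, were found in 5 of 12 neutrophil promoter windows (41.7%), on either strand, against 3.47% of all genes. Both bright and dim genes held them, S100a8 and Elane among them.

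Globin genes, which mark red blood cells, were bright on probe sets that the rule on single-gene probe sets left out. Probe sets shared by the beta-globin genes and by both alpha-globin genes averaged 14.09 ± 0.0559 and, at the brightest, 14.31 ± 0.0872, above all but a few genes, whereas the only probe set for Hba-a1 alone read 3.63. Alas2, the heme synthesis enzyme of red cell precursors, read 11.47, 11.42 and 11.66. The platelet genes Ppbp and Gp9 read 10.03, 10.04 and 10.62 and 8.23, 8.39 and 8.84, both highest in replicate 4, as were 8 of the 9 genes in this list.

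Genes that take up lipoproteins and fatty acids were bright in 5 of 15 cases. Lpl, lipoprotein lipase, read 13.57, 13.61 and 13.60, the large endocytic receptor Lrp1 12.53, 12.55 and 12.55 and the scavenger receptor Cd36 12.36, 12.44 and 12.37. Vldlr read 11.94 and Stab1 11.80. Scarf1, Stab2 and Marco, scavenger receptors of endothelium and of some macrophages, were dimmest at 7.80, 7.16 and 6.20. Lpl and Cd36 are also abundant in fat and heart, whose markers Adipoq and Myh6 were bright here; their part was not tested.

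Cholesterol efflux and the targets of the oxysterol-sensing LXR receptors had 6 of 16 bright. The desaturase Scd1 read 13.69, 13.74 and 13.71, the phospholipid transfer protein Pltp 13.42, 13.48 and 13.49 and the lysosomal carrier Npc2 13.31. The pumps that load cholesterol onto high-density lipoprotein, Abca1 and Abcg1, read 12.57, 12.62 and 12.62 and 12.45, 12.50 and 12.45. The receptor gene Nr1h3 itself was middling at 8.90, as was Ch25h, which makes an oxysterol, at 9.35. Cholesterol synthesis was lower, with 2 of 16 bright. Hmgcs1, at the pathway's entry, read 13.10, 13.06 and 13.02 and the sterol sensor Insig1 read 12.25, 12.31 and 12.07, whereas Fdps, Lss and Mvd had means of 8.45, 8.16 and 8.02. Replicate 4 was the lowest pool for 14 of the 16 synthesis genes, against 33.1% of all genes.

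Apoe, the deleted gene, read 7.05, 6.79 and 6.80, brighter than 35.9% of genes but below Sry. What remains of its message in these mice, and where the probes lie on it, was not analysed here. Of 16 apolipoproteins and related genes 3 were bright. They were Clu at 13.84, 13.89 and 13.87, Apod, a lipocalin of fibroblasts and nerve, at 12.14, 12.01 and 12.15, and the serum amyloid gene Saa3 at 12.04, 12.00 and 12.06. Apoc1, made by macrophages and liver, read 10.75. The liver and gut genes Apoa4, Apob and Apoa5 were dimmest, at 6.10, 5.21 and 5.17. Saa1 read 11.13, 10.81 and 9.58 and Saa2 10.67, 10.24 and 8.91; unlike Saa3, both were more than 1 log2 unit lower in replicate 4 than in the other 2 pools.

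Fatty acid and lipid droplet genes had 9 of 18 bright. Fabp5 read 13.22, the droplet coat protein Plin2 13.06, 13.13 and 13.10, Acly, which makes acetyl units for lipid synthesis, 12.96, and Acadm, which burns fatty acids, 12.60. Pparg, the fat cell receptor, and the lipase Lipe read 10.68, 10.71 and 10.35 and 9.90, 9.88 and 9.48. Replicate 4 was the lowest pool for 14 of the 18 genes, as it was for 9 of 10 brown fat genes and 7 of 8 white fat genes; the part of fat tissue in these levels was not tested.

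Among 25 chemokines, 4 were bright, 18 middling and 3 near the floor. Ccl6, Ccl9 and Ccl8, which attract myeloid cells in mice, read 13.07, 13.10 and 13.06, 12.64, 12.65 and 12.63 and 12.48, 12.51 and 12.58. Cxcl12, the ligand of Cxcr4 made by stromal cells, read 12.95, 13.01 and 13.05. Xcl1, Ccl20 and Cxcl11 were near the floor at 4.89, 4.08 and 3.39. Chemokine receptors were dimmer, with 2 of 14 bright. These were the scavenging receptor Ackr3 at 12.11, 12.16 and 12.17 and Cxcr4 at 11.94, 11.97 and 12.01, both of which bind Cxcl12, so that this ligand and its receptors were all bright. Cxcr5 and Ccr3 were near the floor at 4.74 and 3.30.

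Of 25 cytokines 1 was bright and 8 were near the floor. The bright one was Tgfb2, a form of transforming growth factor beta, at 11.82, 11.90 and 12.09. The alarmin Il33 read 11.52, the interleukin-1 blocker Il1rn 11.27, Tgfb3 10.82 and Csf1 10.15. The genes near the floor were Il12a, Ifng, Il10, Csf3, Il5, Il13, Il17a and Il4. Most of these are lymphocyte products, and the dimmest of them, Il4, read 3.18, 3.63 and 3.33. Il1b and Tnf, the main inflammatory cytokines of macrophages, read 8.90, 9.05 and 8.98 and 5.93, 5.91 and 6.09, so Tnf lay below Sry.

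Interleukin-7, named in the title of the series, is a survival factor for lymphocytes made by stromal cells. Il7 read 7.79, 7.56 and 7.61, brighter than 41.5% of genes and just above Sry, and its receptor chain Il7r read 12.09, 12.11 and 12.22, brighter than 93.3% of genes. On these brightest probe sets the ligand was middling and the receptor bright in every pool. The other probe set of Il7 averaged 5.19, below Sry, and that of Il7r was middling at 9.61, 9.62 and 9.63. This receptor chain also binds thymic stromal lymphopoietin together with Crlf2, and Tslp and Crlf2 read 8.37, 7.93 and 8.27 and 11.02, 11.03 and 11.07.

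Receptors for cytokines and growth factors sat well above their ligands as a list. Of 22, 5 were bright and none near the floor, with a median at 79.96% of genes dimmer, against 41.5% for cytokines. Besides Csf1r and Il7r, the bright ones were the shared signal chain Il6st at 13.06, 13.03 and 13.06 and the TGF-beta receptors Tgfbr2 at 12.48, 12.50 and 12.46 and Tgfbr1 at 12.06, 12.04 and 12.15. Over 30 ligand and receptor pairs, some of which share a gene, the receptor ranked above its ligand in 19. In 7 pairs the ligand was near the floor, and in all 7 the receptor was middling, as were 68.9% of all genes. These pairs were Ifng with Ifngr1, Il4 with Il4ra, Il10 with Il10ra, Il13 with Il13ra1, Il17a with Il17ra, Csf3 with Csf3r and Ccl20 with Ccr6. The receptor Ccr6, at 5.52, lay below Sry. Il13 against Il13ra1 was the widest of the 7 pairs in rank, at 3.51 and 11.07. Pairs led by the ligand included Cxcl13 with Cxcr5 (10.90 and 4.74), Cxcl16 with Cxcr6 (11.11 and 6.86) and Cxcl1 with Cxcr2 (10.53 and 6.21). These receptors are those of B cells, T cells and neutrophils.

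**Figure D3:**
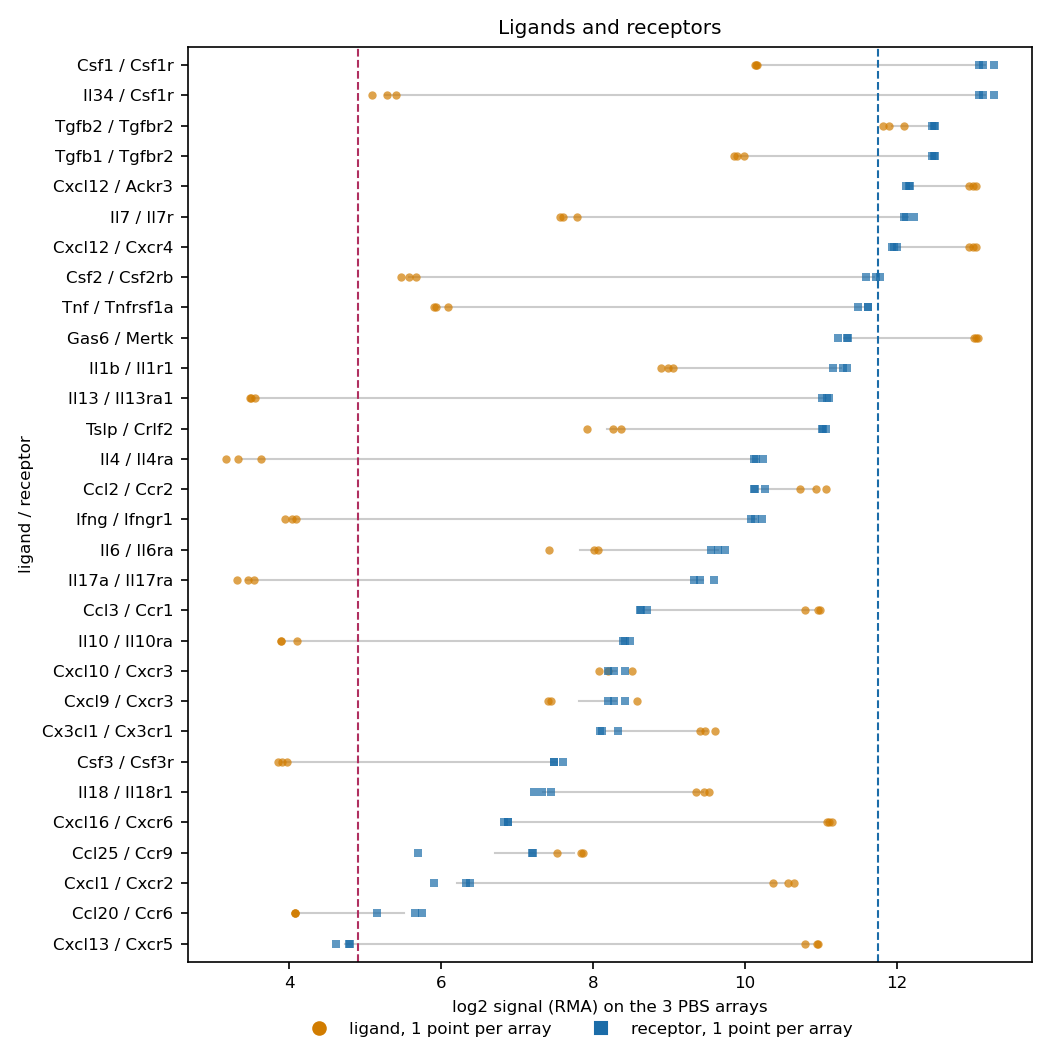
Log2 signal of 30 ligands (circles) and their receptors (squares), 1 point per PBS array, ordered by the mean of the receptor; a gene may stand in several pairs. Dashed lines mark the floor limit (left) and the bright limit (right). Ligands of T cells such as Il4, Il13, Il17a and Ifng lie left of the floor limit while their receptors are middling, as are 68.9% of all genes.

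Innate sensors were all middling (18 of 18), led by the fungal glucan receptor Clec7a at 11.45, 11.53 and 11.69 and the RNA sensor Tlr3 at 11.53, 11.52 and 11.56. Cd14 and Tlr4, which detect bacterial lipopolysaccharide, read 11.32 and 11.05. The inflammasome gene Nlrp3 read 6.97, and Tlr5 and Tlr9 read 6.33 and 5.75, all 3 below Sry. Leukocyte adhesion genes had 4 of 19 bright. Vcam1 led, followed by Cd44 at 12.30, Selp (P-selectin, of endothelium and platelets) at 12.29, 12.27 and 12.23 and Itgb1 at 12.04. Icam1 lay just under the bright limit at 11.70, 11.70 and 11.71, and E-selectin, Sele, read 7.36, 7.41 and 7.05.

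Antigen presentation was led by the invariant chain Cd74 at 13.41, 13.42 and 13.48 and by B2m, the class I light chain, at 13.57, 13.62 and 13.59. The class II genes H2-Ab1, H2-Aa and H2-Eb1 were bright at 12.35, 12.22 and 12.01, whereas H2-Oa and H2-Ob, which B cells use, read 6.73 and 6.76. The class I genes H2-D1 and H2-K1 read 13.04 and 12.82; these genes are closely alike and their probes may share signal. Of 15 interferon-stimulated genes 2 were bright, Ifi27 at 12.72 and Rsad2 at 11.98, 11.99 and 12.23, and Mx2 was dimmest at 5.82, 5.60 and 5.13.

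Complement had 5 of 17 bright, led by C1qb, the C1 inhibitor Serping1, C1qc at 12.72, the anaphylatoxin receptor C5ar1 at 12.17, 12.12 and 12.09 and the C1 protease C1s1 at 11.88, 11.81 and 11.81. The last components of the lytic pathway were dim: C9 was near the floor at 4.81. C8a read 4.53, 5.86 and 4.58, highest in replicate 3 but below Sry in each pool. Coagulation genes had 4 of 16 bright, namely Anxa2 (annexin A2, a plasminogen receptor) at 13.37, thrombomodulin (Thbd) at 12.73, 12.76 and 12.71, the thrombin receptor F2r at 12.19, 12.23 and 12.31 and F13a1. Prothrombin (F2) and protein C (Proc), liver products, were near the floor at 4.56 and 4.44.

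**Figure D4:**
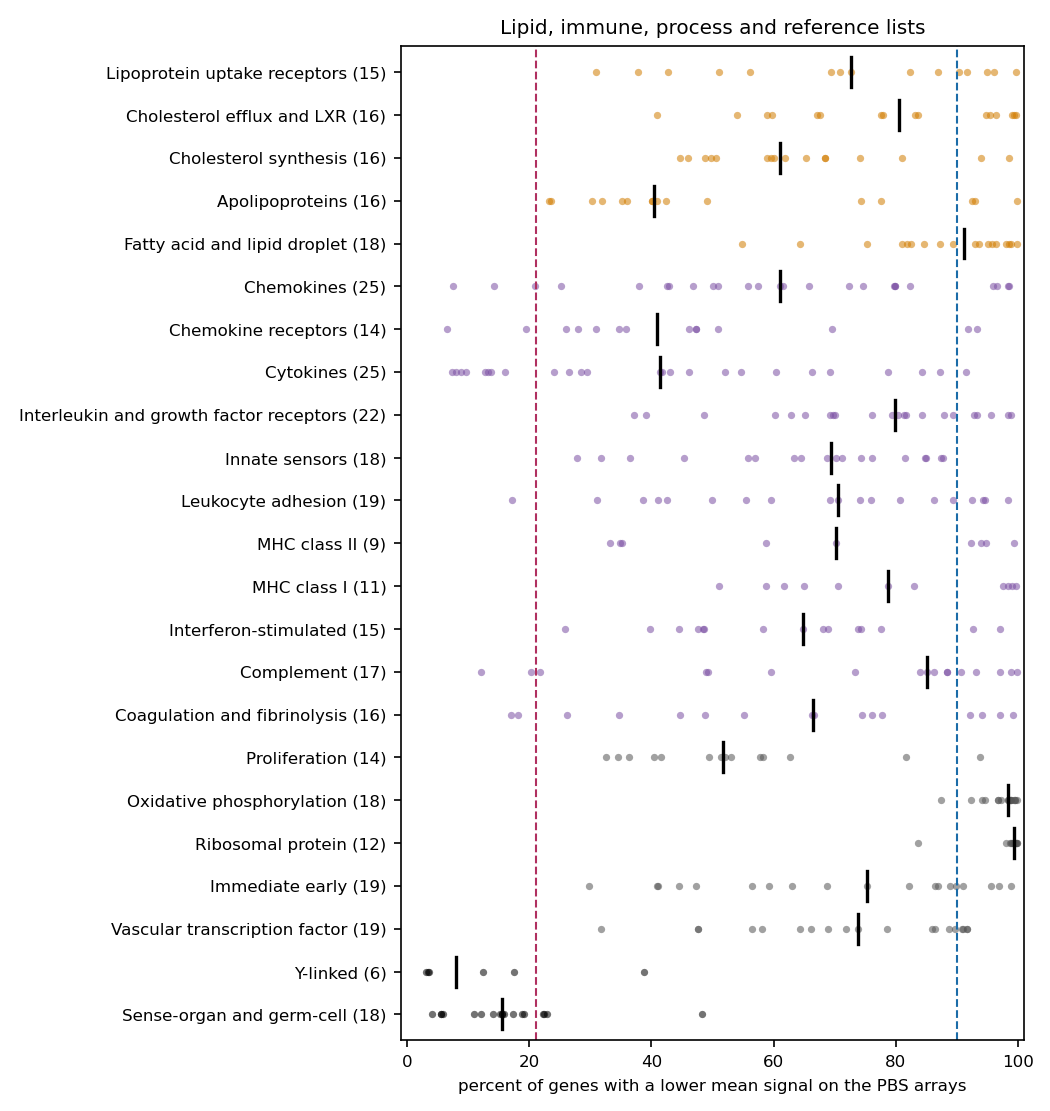
Position of each measured gene (points) and the median (black bar) of the lipid, immune, cell process and reference lists, as the percent of all genes with a lower mean signal on the 3 PBS arrays; the number of measured genes is in brackets. Dashed lines mark the floor limit (left) and the bright limit (right). Ribosomal and respiratory genes lie at the far right and Y-linked and sense-organ genes at the far left, apart from Sry and Prm1.

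Heart muscle was bright in these aortas. Of 16 cardiac genes 10 were bright, with a median at 97.9% of genes dimmer, above that of smooth muscle. The atrial and ventricular myosin Myh6 read 13.50, 13.51 and 13.45 and the natriuretic peptide Nppa, made mainly in atria, 13.11, 13.13 and 12.95. Actc1 (cardiac actin), Tnnt2 (a troponin) and the atrial light chain Myl7 read 13.51, 13.49 and 13.47. The ventricular light chains Myl2 and Myl3 read 13.61, 13.47 and 13.26 and 13.59, 13.50 and 13.25, both lowest in replicate 4. Myl7 and the other atrial light chain, Myl4 (named after its values were seen), were highest there at 13.46, 13.43 and 13.53 and 13.37, 13.45 and 13.50. Nppa, however, was lowest in replicate 4, as were Myh6 and in all 10 of the 16 cardiac genes, against 33.1% of all genes. Nkx2-5, a cardiac transcription factor, was dimmest at 5.62.

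A CArG box was found in the promoter windows of 3 of 14 cardiac genes (21.4%), against 1.58% of all genes. All 3 of these genes were bright, so the 120 bases before each start are shown, with the box in capitals, for Actc1 (chr2:114052876-114052995, minus strand), Myl7 (chr11:5898783-5898902, minus strand) and Myl3 (chr9:110763558-110763677, plus strand).
Actc1: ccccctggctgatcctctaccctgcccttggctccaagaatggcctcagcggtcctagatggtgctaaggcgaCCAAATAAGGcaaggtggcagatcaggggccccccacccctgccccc
Myl7: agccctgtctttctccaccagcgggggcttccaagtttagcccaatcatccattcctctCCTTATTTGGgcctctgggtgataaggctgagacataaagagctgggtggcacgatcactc
Myl3: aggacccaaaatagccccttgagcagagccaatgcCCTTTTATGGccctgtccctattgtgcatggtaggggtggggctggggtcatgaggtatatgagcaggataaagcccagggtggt
The boxes begin 47, 61 and 85 bases before the starts of Actc1, Myl7 and Myl3. Acta1, a skeletal actin whose window also held one, was middling at 9.73, and the skeletal myosin Myh4, with another, was near the floor at 4.20. A share above that of all genes was not particular to muscle lists. The box was also found in 2 of 10 windows of B and plasma cell genes and in 2 of 16 of sense-organ and germ-cell genes. Many other lists held none, and with so few windows per list these shares do not set heart genes apart.

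Some fat genes were bright too, namely 4 of 10 in the brown fat list and 3 of 8 in the white fat list, with both medians middling. Ucp1, the uncoupling protein that defines brown fat, read 13.22, 13.20 and 12.75, with the respiratory subunit Cox8b at 13.12, 13.16 and 12.89 and Cidea at 12.84, 12.72 and 12.36. Adipoq (adiponectin), the marker of fat cells, read 12.70, 12.66 and 12.49, Car3 13.58, 13.58 and 13.55 and Retn (resistin), which was middling, 11.58. Replicate 4 was lowest for each of these 6 genes, and leptin, Lep, read 7.19, below Sry. Of oxidative phosphorylation genes 17 of 18 were bright, from Cox7a2 at 13.76 to Uqcrc1 at 11.54, the only middling one. Heart and brown fat are rich in mitochondria, and their part in that level was not tested.

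Other tissues were weaker. Skeletal muscle had no bright gene among 16. Its defining markers Ckm and Myh4 stood at 8.54, 8.24 and 7.90 and 4.20. Liver genes had a median at 36.7% of genes dimmer. Alb (albumin) read 8.76, 8.21 and 8.27, and the only bright member, Cyp2e1 at 12.48, 12.40 and 12.22, is also made in fat. Nerve genes had 1 bright member among 13 and 5 at or below Sry, with a median at 47.9% of genes dimmer. They were led by Pmp22, a myelin protein that fibroblasts also make, at 13.08, then Uchl1 at 11.71 and Egr2 at 11.10. Mbp (myelin basic protein) read 10.00, 10.02 and 10.03, and Th, the enzyme of sympathetic nerves, 5.54.

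Of 11 thymus and lymphoid organ genes none was bright, 7 were middling and 4 were near the floor, and 5 lay at or below Sry. Rag1 and Dntt, which rearrange antigen receptors in developing lymphocytes, read 8.58, 8.85 and 7.09 and 9.88, 9.96 and 8.38, lowest in replicate 4, where Rag1 fell under the level of Sry. Foxn1, the factor of thymic epithelium, was near the floor at 4.78. Of the airway genes Scgb1a1, a club cell secretoglobin, read 10.80, 10.75 and 11.33, whereas Sftpc, the surfactant gene of lung alveoli, read 5.55. Parathyroid hormone, Pth, was near the floor at 3.43, and thyroglobulin, Tg, read 6.35. The squamous keratin Krt5 read 6.23. The desmosome gene Dsp was the only bright epithelial member at 12.64, and heart muscle makes it too. Mesothelial genes were led by Gpm6a at 9.99, 10.02 and 10.42 and Upk3b at 9.17, 9.51 and 9.85, with none bright.

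Proliferation genes stood near the middle of all genes, with a median at 51.8% of genes dimmer. Pcna, a replication clamp, was the only bright one at 12.20, followed by Rrm2 at 11.06, while the mitotic genes Aurkb, Bub1 and Plk1 read 6.95, 6.67 and 6.42, below Sry. The proliferation antigen Mki67 read 9.34, 9.17 and 9.25. Immediate early genes, which handling of tissue can induce, had 4 of 19 bright. They were Jund at 13.20, Dusp1 at 12.69, Egr1 at 12.48 and Jun at 11.86, with Fos just under the limit at 11.74. Among 19 vascular transcription factors, Foxc1, Mef2c, Myocd (myocardin, the coactivator of serum response factor in muscle) and Foxc2 were bright at 11.94, 11.94, 11.88 and 11.85. Nkx2-3 was dimmest at 6.32.

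The spread between the 3 pools was uneven across genes. Of 14346 genes above the floor, 74 had an SD over 0.5 on the log2 scale. Replicate 4 was the pool farthest from the median in 64 of them, and replicates 1 and 3 in 5 each; over all genes above the floor replicate 4 was the farthest in 42.8%. Without replicate 4 the count was 36, and without replicate 1 or 3 it was 140 or 151, from the 2 pools that remained.

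The most variable of these genes was Hnf4a, a transcription factor of liver and gut, at 6.21, 5.10 and 3.92, from middling down to the floor. Panx3 and Cnmd were highest in replicate 4. So were the muscle genes Myh1 at 4.44, 4.79 and 6.40, Tnnc2 at 6.50, 5.95 and 7.58, and the nerve terminal gene Snap25 at 6.50, 6.73 and 8.02. Lowest in replicate 4 were the thymus genes Rag1, Dntt and Tbata (6.39, 6.30 and 4.74), Myb (9.64, 10.02 and 8.33), and Ccr9 (7.22, 7.20 and 5.70), a homing receptor of thymocytes. The liver-type genes Saa1, Saa2 and Mat1a (5.55, 5.60 and 4.09) were lowest there too. Hnf4a, Myh1, Tnnc2, Snap25, Tbata, Ccr9 and Mat1a had means below Sry, so their differences are not taken as evidence of expression. Myh1, Dntt, Myb and Saa2 were read on probe sets marked as open to cross-matching. An unmarked probe set of Myh1 read 2.90, 3.12 and 2.95, and one of Dntt read 9.59, 9.63 and 7.87, again lowest in replicate 4.

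Some lists deviated as a whole. The thymus list deviated by a median of -0.38 in replicate 4, +0.30 in replicate 3 and +0.13 in replicate 1 from the mean of the pools, and the brown fat list by -0.22, +0.09 and +0.13. Liver genes deviated by -0.20 in replicate 4 and +0.19 in replicate 1, and replicate 4 was lowest for 13 of 15. In the other direction, the erythroid and platelet list deviated by +0.29 in replicate 4 and the mesothelial list by +0.26, with all 8 mesothelial genes highest there. The median deviation of all genes lay between -0.0106 and 0.0073 in the 3 pools. Lists of the wall deviated less in replicate 4. The smooth muscle list deviated by +0.02, with 13 of 21 genes highest there, and the fibroblast list by -0.0031. The collagen list deviated by +0.06, basement membrane genes by +0.03 with 15 of 19 highest, and adhesive glycoproteins by +0.06. Endothelial genes deviated by -0.05, with replicate 4 lowest for 17 of 24. The foam cell list deviated by +0.0070. No list changed the band of its median when any 1 pool was left out.

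**Figure D5:**
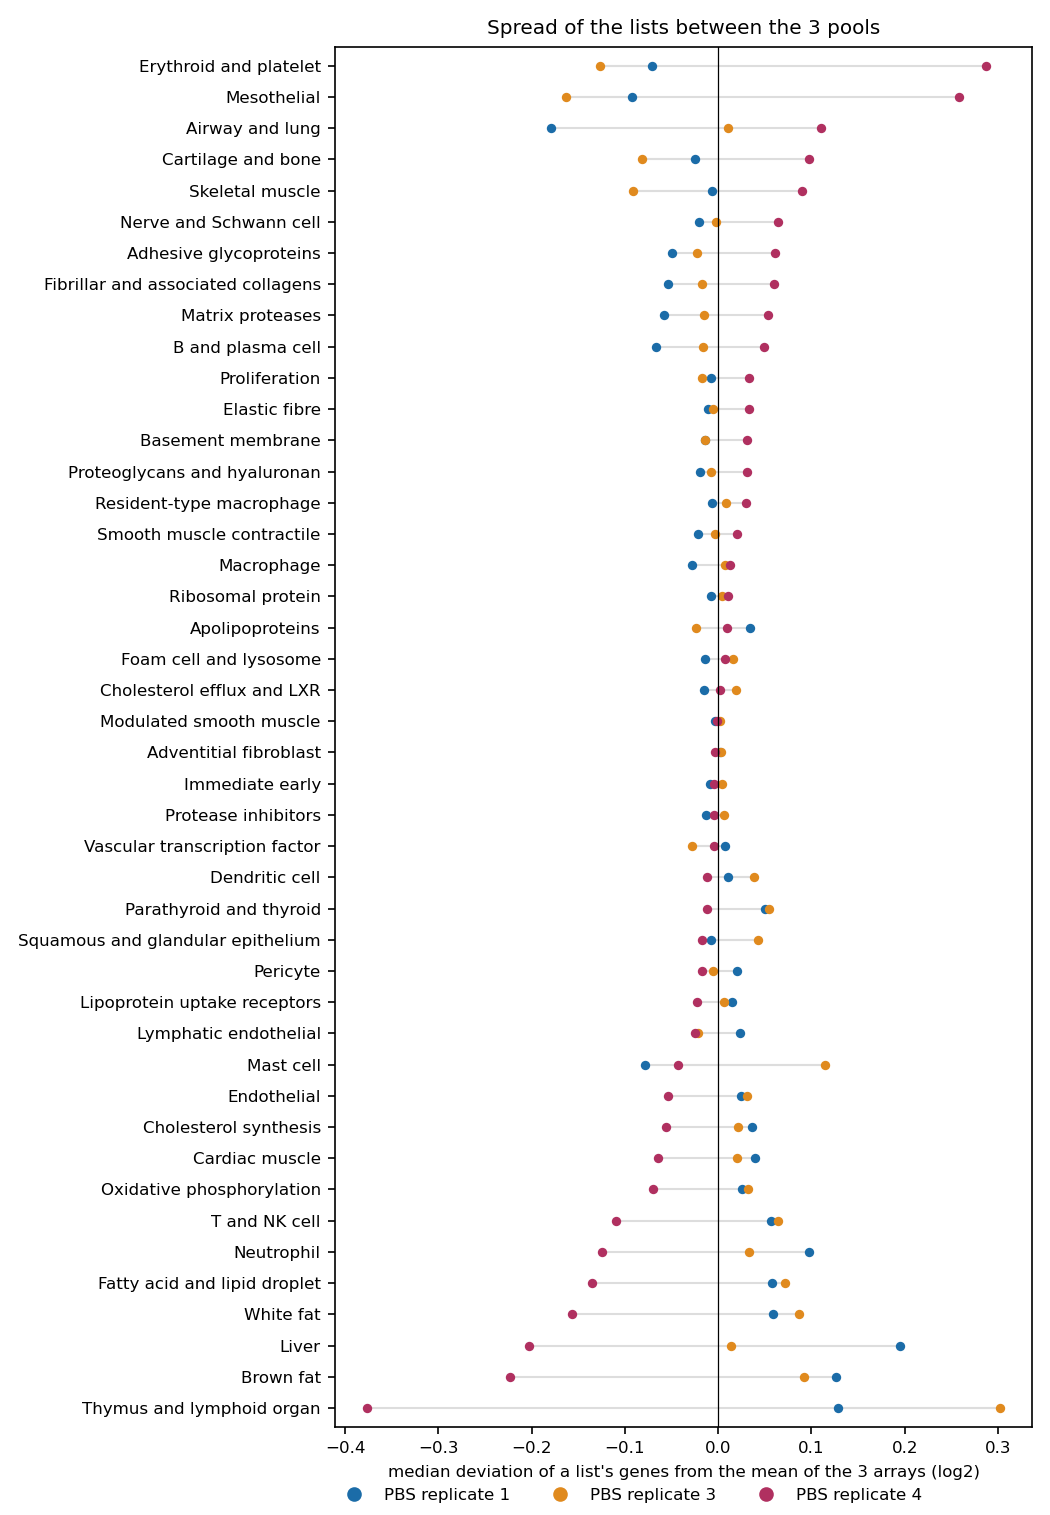
Median deviation of each list's genes from the mean of the 3 PBS arrays (log2), 1 point per array, with lists ordered by replicate 4. Replicate 4 lies at the right for erythroid and platelet (+0.29) and mesothelial genes (+0.26) and at the left for thymus (-0.38), brown fat (-0.22) and liver genes (-0.20), while smooth muscle (+0.02) and fibroblast (-0.0031) genes lie near 0.

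Promoter composition went with the bands. The median number of CpG pairs in the window was 21 in bright genes, 19 in middling genes and 5 in genes near the floor, while TATAAA was found in 11.1%, 9.50% and 18.5% of windows. Many lists of bright, cell-specific genes resembled the dim band in CpG count: the smooth muscle list had a median of 6.50 CpG pairs, macrophage genes 3 and cardiac genes 5. Ribosomal protein and respiratory genes, used in every cell, had 23 and 20. TATAAA did not follow the CpG count in the same way. It was found in 18.8% of smooth muscle windows, 0.0% of macrophage windows and 35.7% of cardiac windows.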

How the data were processed

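RNA of the pools was labelled and read on mouse arrays from Affymetrix, according to the protocols in the labels. The deposited values are log2 signals of 45101 probe sets. Per the submitters' processing notes, RMA produced them (version: not given in the sources used here). Their range, and no label, gave the log2 scale. Because RMA quantile-normalizes, array distributions are alike. Saturation at the bright end was not measured. Values on the PBS arrays ran from 2.10 to 14.54. The 3 arrays limit the precision, and the labels give separate pools as replicates.

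In the platform's annotation 34945 probe sets had a single gene, 932 had several genes and 9160 had no gene name; the remaining 64 were controls. Gene identifiers linked 34741 of the single-gene probe sets to RefSeq (GRCm38.p6), which supplied names and promoter sequences. Bands, ranks and SD over the 3 PBS arrays were computed as the report states. There was no comparison of groups and no test. The 57 gene lists hold 851 genes, of which 780 were measured (225 bright, 492 middling and 63 near the floor) and 71 were not analysed here. Of the listed genes, 70 stand in more than 1 list. The members and lists were chosen with earlier results of these data known. The rule for named genes took Apoe, Il7, Il7r, the defining markers, up to the 5 highest and 3 lowest members of each list, the 30 brightest genes and the 15 most variable genes above the floor; not all are printed. The genes of the ligand and receptor pairs, Myl4 and the genes at the limits were added. Banding was run on simulated data whose set genes lay well away from both limits, so it was not tested for genes near them. Alternatives were other choices of probe set, floor, bright limit, average and arrays. Python 3.11.15 with numpy 2.4.6, pandas 2.3.3 and matplotlib 3.10.9 was used.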

Additional observations from a re-analysis of the deposited data

How the results depend on the processing

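No paired analysis was possible because the results come from no test and from 1 group. Leaving out each PBS pool in turn gave 1820 bright genes each time, 12445 to 12655 middling and 3718 to 3928 near the floor, kept 12 list medians bright, 43 middling and 2 near the floor, and moved the genes with an SD over 0.5 from 74 to between 36 and 151. With the median of the 3 arrays, or the mean of all 9 arrays, no list changed band. The spread count was 48 with the mean of all probe sets of a gene, 33 with the floor at the 99th percentile of the smell and taste receptors and 23 with the floor at Sry. Those floors put 6123 and 7064 genes near the floor, and 5 and 10 list medians. Bright as the top 5% held 910 genes and left the elastic fibre, macrophage and fatty acid lists middling. As the top 20% it held 3639 genes and 22 list medians.

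The choice of probe set also moved the bands. Averaging a gene's probe sets kept 55.2% of the bright genes bright, and 7 lists changed band. Elastic fibre genes and fatty acid and lipid droplet genes fell to middling, and parathyroid and thyroid genes to near the floor. Pericyte, collagen, resident-type macrophage and white fat genes rose to bright. Using only probe sets without a mark for shared sequence put 5 list medians near the floor, and 8 lists changed band. Among them were ribosomal proteins and fatty acid genes (bright to middling), collagens and white fat (middling to bright) and mast cell and airway genes (middling to near the floor). Of 9010 genes with several probe sets, the median gap between brightest and dimmest was 2.91 log2 units, and in 30.4% of 1366 bright genes with several the next probe set was bright too. Signal near the floor could not separate low expression from none.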

Other observations

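Probe sets outside the single-gene rule held bright signals as well. Of 932 probe sets annotated to several genes, 208 (22.3%) lay above the bright limit, against 6.87% of the 34945 with 1 gene. Of the 9160 probe sets with no gene name here, 148 (1.62%) lay above it, the highest at 14.22, and 54.7% lay at or below the floor. The 3 probe sets shared by kappa light chain genes of antibodies averaged 12.53, 12.22 and 12.01, and each was highest in replicate 4. Replicate 4 read 12.91, 12.65 and 12.47 on them, and replicate 1 read 12.35, 11.99 and 11.78.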
